A study of Rattus norvegicus with 12 samples.

Results

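The genes described are those of the proteasome, the protease complex that degrades ubiquitin-tagged proteins. They were chosen from the platform annotation by symbol: Psma, Psmb, Psmc or Psmd followed by a number. The annotation held 40 such symbols. Of these, 37 had a probe set (the group of probes that reads 1 transcript) of their own, among 14217 genes with one, and all 37 were among the 11842 genes bright enough to be tested. Each was read by its probe set with the highest mean over the 12 arrays. The other 3 symbols, Psma3l, Psmb6 and Psmb6l1, were measured only by probe sets shared between several genes, which are given by ID and credited to no gene.

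Liver RNA came from male Sprague-Dawley rats, 10 weeks old, in 4 groups of 3 rats with 1 array a rat. The treated rats were dosed by gavage every 24 h over 72 h with a triazole fungicide. The daily dose was 300 mg/kg for both myclobutanil and propiconazole, and 175 mg/kg for triadimefon. The labels used here do not say what control animals received. RNA was labelled from an oligo-dT primer and hybridised to Affymetrix Rat Genome 230 2.0 arrays. Levels are given in log-like units, which are the authors' scores after quantile normalisation. Their log base is unknown, so differences are given and no fold change. In bulk liver, fewer cells of a type and less RNA per cell cannot be told apart.

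The proteasome has a barrel-shaped 20S core and a 19S cap. The core stacks rings of alpha subunits (Psma genes), which form the gate, and rings of beta subunits (Psmb genes), some of which hold the proteolytic sites. The cap binds ubiquitin chains, removes them and feeds the unfolded protein into the core. Its base holds a ring of ATPases (Psmc genes) with some of the Psmd subunits, and its lid holds the other Psmd subunits. Interferon-induced catalytic subunits can replace the constitutive ones to form the immunoproteasome, which favours peptides for antigen presentation: Psmb8 replaces Psmb5, Psmb9 replaces Psmb6 and Psmb10 replaces Psmb7. In mammals, subunit genes are known to be raised together by the transcription factor NRF1 when proteasome activity falls short, and some also by NRF2, the regulator of antioxidant genes.

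The 37 genes comprised 13 of the 20S core (7 of the alpha ring and 6 of the beta ring), the 3 immunoproteasome subunits and 17 of the 19S cap (6 ATPases and 11 other subunits). They also held Psmd5, Psmd9 and Psmd10, which are chaperones of cap assembly, and Psmc3ip, a recombination protein that meets the symbol rule without being a subunit. No tissue-specific core subunit was among them.

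The promoters of 5 members are shown because these had the smallest p-values among members with a RefSeq entry, with genes past the test threshold first. Of the 37 members, 33 had a window of 300 bases, from 250 before the annotated gene start to 50 after it (RefSeq, GRCr8). Psma7, Psmd6, Psmd12 and Psmd14 had none in the table used. The sequences are written 5′ to 3′ along the gene, and capitals mark matches to any of the motifs described next.
Psma1, chr1:177887808-177888107, minus strand: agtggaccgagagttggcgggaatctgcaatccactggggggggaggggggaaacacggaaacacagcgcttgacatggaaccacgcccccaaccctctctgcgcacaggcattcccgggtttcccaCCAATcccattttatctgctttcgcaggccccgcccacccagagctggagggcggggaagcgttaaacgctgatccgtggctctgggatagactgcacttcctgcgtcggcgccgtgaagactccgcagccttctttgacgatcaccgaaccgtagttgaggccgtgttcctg
Psmd5, chr3:38548441-38548740, minus strand: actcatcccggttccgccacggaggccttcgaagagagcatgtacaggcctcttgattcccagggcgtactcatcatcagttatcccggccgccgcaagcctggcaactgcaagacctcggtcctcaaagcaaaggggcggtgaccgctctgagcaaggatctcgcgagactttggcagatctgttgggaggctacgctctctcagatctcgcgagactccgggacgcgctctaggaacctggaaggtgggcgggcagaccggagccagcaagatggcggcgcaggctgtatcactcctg
Psma6, chr6:78514097-78514396, plus strand: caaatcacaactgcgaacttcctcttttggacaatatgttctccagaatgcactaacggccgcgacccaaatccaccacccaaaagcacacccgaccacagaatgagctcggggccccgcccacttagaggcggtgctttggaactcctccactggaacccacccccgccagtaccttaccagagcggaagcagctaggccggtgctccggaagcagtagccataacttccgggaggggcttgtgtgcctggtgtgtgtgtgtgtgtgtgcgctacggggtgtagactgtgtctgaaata
Psma2, chr17:55260392-55260691, minus strand: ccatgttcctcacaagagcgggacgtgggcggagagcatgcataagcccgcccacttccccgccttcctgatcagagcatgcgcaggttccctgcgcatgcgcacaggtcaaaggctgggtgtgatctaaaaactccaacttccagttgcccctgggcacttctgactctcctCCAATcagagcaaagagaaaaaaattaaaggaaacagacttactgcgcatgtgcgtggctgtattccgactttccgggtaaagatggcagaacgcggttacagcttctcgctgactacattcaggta
Psma4, chr8:64236270-64236569, plus strand: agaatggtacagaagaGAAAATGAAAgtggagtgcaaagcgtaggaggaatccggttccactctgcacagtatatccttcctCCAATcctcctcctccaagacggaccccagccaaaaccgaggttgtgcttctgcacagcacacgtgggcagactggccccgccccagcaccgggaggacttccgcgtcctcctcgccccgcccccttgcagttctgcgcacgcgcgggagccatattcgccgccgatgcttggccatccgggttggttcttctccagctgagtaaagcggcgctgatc

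Motifs were searched on both strands. The NF-Y box CCAAT was in 19 of the 33 windows, 9 of them among the 12 core genes, against 37.5% of all 33469 windows. Psma1, Psma2 and Psma4 carried it at offsets of -123, -77 and -168 from the gene start. The antioxidant response element core TGACNNNGC was in 6 of 33 windows (Psma3, Psmb2, Psmb5, Psmd1, Psmd3 and Psmd9) against 12.1% of all windows. None of the 5 promoters printed held these letters. The interferon-stimulated response element, searched as GAAA and GAAA with any 2 bases between them, was in 5 of 33 windows against 3.92% of all. Psmb10 held it as GAAAGTGAAA and GAAAGCGAAA, Psma4 as GAAAATGAAA, and Psmb8, Psmb3 and Psmd7 held it on the other strand. The interferon gamma activated site TTCNNNGAA was in 4 of 33 windows, Psmb8 among them, against 8.87% of all. These are matches of letters, with no binding data behind them.

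Differences between groups were tested with limma over all 21729 probe sets past the filter, with Benjamini-Hochberg adjustment, and an adjusted p under 0.05 was called. After myclobutanil, 2 of 37 members rose, Psmd12 and Psma1, and none fell. Among all genes tested 1.28% were called higher and 0.980% lower. With propiconazole 1 member rose, the cap chaperone Psmd5, and none fell, against 0.996% of all genes called higher and 0.684% lower. No member was called after triadimefon, where 0.557% of all genes were called higher and 0.279% lower. With an unadjusted p below 0.05, 10 members were higher after myclobutanil, 6 after propiconazole and 2 after triadimefon, and none was lower in any of the 3. Among all genes, 10.4%, 8.54% and 7.46% were higher at that level, and 13.0%, 7.75% and 7.35% were lower. The groups did not overlap upward in 14 members after myclobutanil, 11 after propiconazole and 4 after triadimefon, against 11.9%, 14.0% and 13.3% of all genes. The 3 comparisons share their control arrays, so they are not independent.

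**Figure D1:**
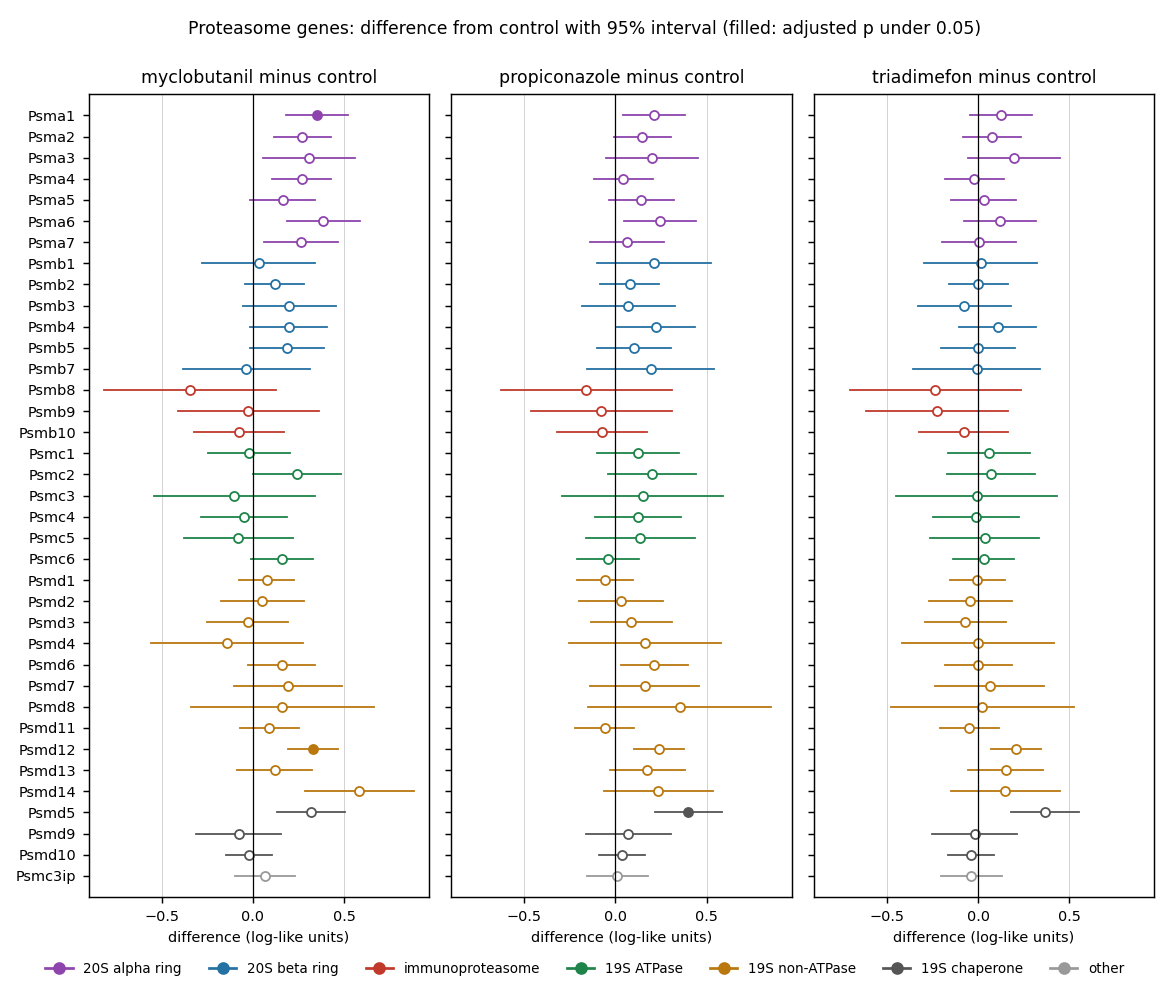
Difference of each treated group from control for the 37 genes (log-like units, points) with 95% intervals (lines), coloured by class, with called genes filled. The filled points are Psma1 and Psmd12 after myclobutanil and Psmd5 after propiconazole, and the points of all 7 alpha ring genes lie above 0 in the first and second panels.

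The alpha ring, which gates the core, was the class whose values lay most uniformly above control after myclobutanil. All 7 differences were above 0, from 0.16 for Psma5 to 0.39 for Psma6, with a median of 0.27, and they lay between percentiles 87.2 and 97.8 of the differences of all genes tested. In 6 of the 7 genes every myclobutanil array was above every control array, where 11.9% of all genes had such a gap upward. The exception was Psma3. With propiconazole all 7 differences were also above 0, from 0.04 for Psma4 to 0.24 for Psma6, and 5 of 7 genes had no overlap with control, against 14.0% of all genes. After triadimefon 6 of 7 differences were above 0, from -0.02 to 0.20, and only Psma3 had no overlap, against 13.3% of all genes.

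Psma1, a subunit of the outer ring, read 1.39, 1.12 and 1.23 in the control rats, 1.64, 1.59 and 1.57 after myclobutanil, 1.48, 1.42 and 1.48 after propiconazole and 1.31, 1.38 and 1.42 after triadimefon. All myclobutanil and propiconazole arrays lay above the highest control array, and the triadimefon arrays overlapped control. The difference was 0.35 ± 0.0775 (SE, n = 3 a group, adjusted p = 0.0471, limma) for myclobutanil and 0.21 ± 0.0775 (adjusted p = 0.231) for propiconazole. For triadimefon it was 0.12 (adjusted p = 0.538). The call after myclobutanil was close to the threshold: leaving out any 1 array gave an adjusted p from 0.0488 to 0.171, and only the fit without control replicate 1 kept it under 0.05.

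Psma6 read 2.27, 2.42 and 2.42 in control, 2.89, 2.63 and 2.75 after myclobutanil, 2.66, 2.49 and 2.69 after propiconazole and 2.56, 2.39 and 2.53 after triadimefon. The myclobutanil and propiconazole arrays were again all above control. Its difference after myclobutanil was 0.39 ± 0.0908 and did not pass the test (adjusted p = 0.0582). It was 0.23 (adjusted p = 0.474) with median centring and 0.25 (adjusted p = 0.549) with the deposited values, where Psma1 gave 0.31 and 0.33. With propiconazole it was 0.24 ± 0.0908 (adjusted p = 0.240).

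Psma2 read 1.88, 1.79 and 1.83 in control and 2.09, 2.09 and 2.13 after myclobutanil, with a difference of 0.27 ± 0.0714 (adjusted p = 0.0788). Psma4 read 1.58, 1.59 and 1.54 in control, 1.96, 1.78 and 1.78 after myclobutanil, and 1.60, 1.58 and 1.66 after propiconazole. Its difference was 0.27 ± 0.0738 after myclobutanil (adjusted p = 0.0848) and 0.04 ± 0.0738 after propiconazole (adjusted p = 0.854). Both genes had myclobutanil arrays clear of control, and Psma4 had propiconazole arrays within the control range or just above it.

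Psma7 read 1.85, 1.90 and 1.93 in control, 2.37, 2.05 and 2.03 after myclobutanil and 1.93, 1.91 and 2.03 after propiconazole. Its myclobutanil difference was 0.26 ± 0.0925 (adjusted p = 0.148), with replicate 1 well above the other two. Psma3 read 0.45, 0.62 and 0.45 in control, 1.14, 0.73 and 0.57 after myclobutanil, 0.74, 0.65 and 0.73 after propiconazole and 0.72, 0.68 and 0.71 after triadimefon. All its propiconazole and triadimefon arrays were above control, while 1 myclobutanil array was not. The differences were 0.31 ± 0.115 (adjusted p = 0.164), 0.20 (adjusted p = 0.468) and 0.20 (adjusted p = 0.506). Psma5, the remaining alpha subunit, gave 0.16 ± 0.0811 after myclobutanil (adjusted p = 0.276). The probe set 1368507_at, shared by Psma3 and Psma3l in the annotation, read 1.99, 1.96 and 2.03 in control and 2.29, 2.24 and 2.20 after myclobutanil, a difference of 0.25 (adjusted p = 0.0919).

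Averaged over the ring, as a deviation from the control mean, the 3 control arrays lay at -0.0027, 0.0059 and -0.0033. Single genes spread more in control than this mean, with SDs from 0.018 for Psma5 to 0.138 for Psma1. The myclobutanil arrays lay at 0.41, 0.23 and 0.22, the propiconazole arrays at 0.15, 0.085 and 0.22, and the triadimefon arrays at 0.070, 0.047 and 0.11. Every treated array was thus above every control array, and the lowest myclobutanil array was level with the highest propiconazole array. The array of myclobutanil replicate 1 stood apart in the series as a whole. Its deposited median was 0.157, against 0.0182 to 0.0552 in the others, and its correlation with each of the remaining arrays had a median of 0.931, where those arrays gave 0.963 to 0.982. It was the highest of the 12 arrays for 13 of the 37 members, a count that was not made over all genes. Without it the median difference of the 13 core genes was 0.15 in place of 0.20, Psmd12 and Psmd14 passed the test, and Psma1 did not (adjusted p = 0.0364, 0.0434 and 0.0604).

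**Figure D2:**
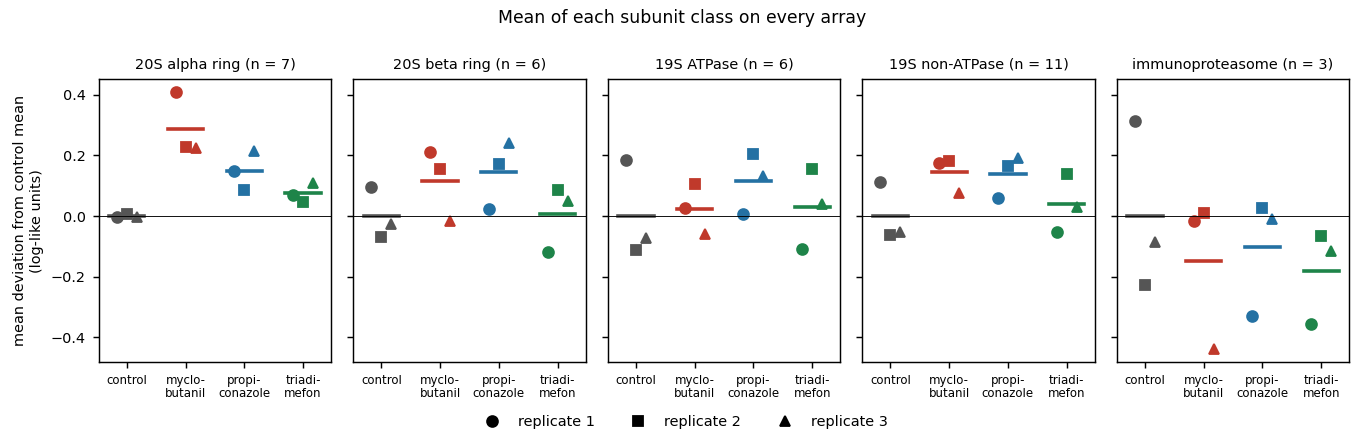
Mean of each subunit class on every array, as the deviation from the control mean of each gene (log-like units), with 1 symbol an array and a line at each group's mean. Alpha ring means of control arrays lie within 0.0059 of 0, though its single genes spread more, and those of all treated arrays lie above. In the other classes the control means spread and overlap with treated ones.

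The beta ring, which holds the proteolytic sites, varied more between rats of a group. None of its 6 genes passed the test in any comparison. After myclobutanil 5 of 6 differences were above 0, with a median of 0.15, and 2 genes (Psmb2 and Psmb4) did not overlap with control, against 11.9% of all genes. With propiconazole all 6 were above 0, with a median of 0.15 and Psmb4 without overlap, against 14.0% of all genes, and after triadimefon 3 of 6 were above 0. Psmb4 had the smallest adjusted p of the ring with each compound: 0.267 for a difference of 0.20 after myclobutanil, 0.320 for 0.22 after propiconazole, and 0.681 for 0.11 after triadimefon. Psmb1, Psmb2 and Psmb3 gave 0.03, 0.12 and 0.20 after myclobutanil.

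Psmb5, the chymotrypsin-like site, read 1.99, 1.91 and 2.05 in control, 2.35, 2.11 and 2.05 after myclobutanil, 1.96, 2.13 and 2.15 after propiconazole and 1.96, 2.05 and 1.94 after triadimefon. The groups overlapped, and the myclobutanil difference of 0.19 ± 0.0928 did not pass (adjusted p = 0.274). It was 0.095 without myclobutanil replicate 1, 0.062 with median centring, 0.084 with the deposited values and 0.11 with the mean of the gene's probe sets. Psmb7, the trypsin-like site, read 2.01, 1.60 and 1.66 in control, 1.75, 1.94 and 1.47 after myclobutanil, 1.75, 2.04 and 2.06 after propiconazole and 1.51, 1.94 and 1.79 after triadimefon. It spread by about as much within each group as between groups, and its differences were -0.04, 0.19 and -0.01 (adjusted p = 0.917, 0.632 and 0.991). The probe set 1398777_at, shared by Psmb6 and Psmb6l1, differed by -0.11 after myclobutanil (adjusted p = 0.510), by -0.075 after propiconazole (0.782) and by -0.15 after triadimefon (0.532).

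All 3 immunoproteasome subunits had differences below 0 with each of the 3 compounds, none passed the test, and all groups overlapped with control. The class medians were -0.08 after myclobutanil, -0.08 after propiconazole and -0.23 after triadimefon, against medians of -0.013, -0.013 and -0.016 over all genes tested. Psmb8 read 1.60, 0.99 and 1.23 in control, 0.98, 1.24 and 0.57 after myclobutanil, 0.79, 1.34 and 1.21 after propiconazole and 0.72, 1.2 and 1.2 after triadimefon. The arrays below the control range were 2 of myclobutanil, 1 of propiconazole and 1 of triadimefon, and the others were within it. Its difference was -0.35 ± 0.214 after myclobutanil (95% interval -0.82 to 0.12, adjusted p = 0.373). It was -0.17 without myclobutanil replicate 3, -0.18 without control replicate 1 and -0.043 with array weights. The difference was -0.16 after propiconazole (adjusted p = 0.791) and -0.23 after triadimefon (adjusted p = 0.685).

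Psmb9 read 1.35, 0.71 and 0.90 in control, 1.23, 1.02 and 0.64 after myclobutanil, 0.68, 1.04 and 1.02 after propiconazole and 0.65, 0.85 and 0.80 after triadimefon. Control replicate 1 was the highest of the 12, and the differences were -0.02, -0.08 and -0.23 (adjusted p = 0.95, 0.893 and 0.628). Psmb10 read 0.77, 0.39 and 0.39 in control, 0.52, 0.55 and 0.25 after myclobutanil, 0.32, 0.49 and 0.52 after propiconazole and 0.34, 0.53 and 0.44 after triadimefon. Its differences were -0.08, -0.07 and -0.08 (adjusted p = 0.722, 0.827 and 0.815). Control replicate 1 was the highest array for this gene as well, and without it the class median was 0.05 after myclobutanil, 0.05 after propiconazole and -0.04 after triadimefon.

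Kupffer cells and other leukocytes also carry immunoproteasome subunits. After myclobutanil 5 of the 9 Kupffer cell and macrophage markers tested fell, among them Clec4f by 1.35 ± 0.224 (adjusted p = 0.0176) and C1qa by 1.0 ± 0.156 (adjusted p = 0.0133), and none rose. The mean level of these 9 markers was 0.237 to 0.814 on the myclobutanil arrays against 1.09 to 1.25 in control, with 1.03 to 1.17 after propiconazole and 1.02 to 1.17 after triadimefon. Of 12 leukocyte markers tested none was called with any compound, at mean levels of 0.0523 to 0.171 after myclobutanil and 0.0988 to 0.173 in control. At an unadjusted p under 0.05, 5 leukocyte markers were lower and 1 higher after myclobutanil. Among all genes 13.0% were lower and 10.4% higher at that level. Of other cell types, 1 of 5 endothelial markers tested was called after myclobutanil, Kdr, which fell by 0.55 (adjusted p = 0.0407). Of 6 stellate cell markers 1 was called lower, Lrat at -0.36 (adjusted p = 0.0322), and 1 higher, Rgs5 at 0.46 (adjusted p = 0.0344). After propiconazole 2 of 5 endothelial markers were called, Kdr at -0.64 and Tek at -0.30 (adjusted p = 0.0268 and 0.0283), while Pecam1 was at 0.067 and Lyve1 at -0.067. Lrat was the 1 of 6 stellate cell markers called, at -0.40 (adjusted p = 0.0231). Of 9 hepatocyte markers 1 was called, Apoa1 at 0.49 (adjusted p = 0.0278), with 3 of 9 above 0 and a median of -0.018. No marker of these lists was called after triadimefon. The part of these cells in the values of Psmb8, Psmb9 and Psmb10 was not tested. The 9 hepatocyte markers measured lay at percentiles 97.5 to 100 of the level of all genes tested, which checks the labelled tissue.

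The ATPase ring of the cap, which unfolds substrates, had differences of mixed sign after myclobutanil. After myclobutanil 2 of 6 differences were above 0, Psmc2 with 0.24 ± 0.110 (adjusted p = 0.236) and Psmc6 with 0.16 ± 0.0772 (adjusted p = 0.259), and Psmc1, Psmc3, Psmc4 and Psmc5 lay between -0.02 and -0.10. Both Psmc2 and Psmc6 had all myclobutanil arrays above control, as 11.9% of all genes did. With propiconazole 5 of 6 were above 0, with a median of 0.13 and all 6 overlapping with control, and after triadimefon 4 of 6, with a median of 0.03. The smallest adjusted p of the ring was 0.236 for myclobutanil, 0.439 for propiconazole and 0.832 for triadimefon.

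Among the 11 other cap subunits, Psmd12 and Psmd14 of the lid had the smallest p-values after myclobutanil. Psmd12, a scaffold subunit of the lid, read 0.79, 0.81 and 0.75 in control, 1.13, 1.05 and 1.15 after myclobutanil, 1.09, 0.92 and 1.04 after propiconazole and 1.02, 1.0 and 0.94 after triadimefon. All 9 treated arrays were above the 3 controls. It rose by 0.33 ± 0.0627 after myclobutanil (95% interval 0.19 to 0.47, adjusted p = 0.0314). The differences of 0.24 after propiconazole (adjusted p = 0.10) and 0.21 after triadimefon (adjusted p = 0.178) did not pass. Leaving out 1 array gave the myclobutanil difference an adjusted p from 0.0258 to 0.135. It was 0.0929, 0.0904 and 0.135 without control replicates 1, 2 and 3, 0.0850 without myclobutanil replicate 3, and 0.0523 and 0.0530 without triadimefon replicates 2 and 3.

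Psmd14, the deubiquitinase that cuts ubiquitin chains from substrates, read 1.17, 1.29 and 1.17 in control, 2.16, 1.52 and 1.69 after myclobutanil, 1.47, 1.30 and 1.55 after propiconazole and 1.38, 1.33 and 1.37 after triadimefon. All treated arrays were above control, and myclobutanil replicate 1 was far above the rest. The myclobutanil difference of 0.58 ± 0.136 was at percentile 99.3 of all genes tested and did not pass the test (adjusted p = 0.0574). It was 0.33 with array weights and 0.36 with the mean of the gene's probe sets, and then passed (adjusted p = 0.0343 and 0.0177). The differences of 0.23 after propiconazole and 0.15 after triadimefon did not pass (adjusted p = 0.471 and 0.684). Another probe set of the gene, 1386073_at, read 0.54, 0.52 and 0.41 in control and 0.89, 0.77 and 0.74 after myclobutanil, and its difference of 0.31 passed (adjusted p = 0.0362). The other tested, 1394082_at, differed by 0.18 (adjusted p = 0.292), with overlapping groups.

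The remaining 9 cap subunits were not called in any comparison. Psmd6, a lid subunit, read 1.44, 1.29 and 1.34 in control, 1.55, 1.52 and 1.48 after myclobutanil and 1.45, 1.61 and 1.66 after propiconazole. Its difference was 0.16 ± 0.0842 after myclobutanil (adjusted p = 0.308) and 0.21 ± 0.0842 after propiconazole (adjusted p = 0.277). Psmd13, also of the lid, read 0.94, 0.80 and 0.79 in control, 0.75, 1.11 and 1.03 after myclobutanil, 0.97, 1.0 and 1.08 after propiconazole and 1.0, 1.07 and 0.91 after triadimefon. Its propiconazole arrays were clear of control and the other two groups were not, with differences of 0.12, 0.17 and 0.15. Psmd8 had the widest spread, from 1.01 to 1.69 in control and from 0.91 to 1.65 after triadimefon. The ubiquitin receptor Psmd4 ranged from 0.41 to 0.98 in control and from 0.24 to 0.70 after myclobutanil, with a difference of -0.14 ± 0.190 (adjusted p = 0.691), the lowest of the cap. Over all 17 cap genes the median difference was 0.09 after myclobutanil (11 of 17 above 0), 0.15 after propiconazole (14 of 17) and 0.02 after triadimefon (10 of 17), where 45.3%, 43.9% and 42.9% of all genes were above 0. With the GAPDH covariate described further on, the propiconazole median was 0.0052, with 9 of 17 above 0. The corresponding core medians were 0.20 (12 of 13), 0.15 (13 of 13) and 0.01 (9 of 13).

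Psmd5, a chaperone of the cap base, was high with all 3 compounds. It read 0.95, 0.95 and 1.02 in control, 1.21, 1.28 and 1.40 after myclobutanil, 1.33, 1.31 and 1.48 after propiconazole and 1.37, 1.45 and 1.21 after triadimefon. Every treated array was above every control array. It rose by 0.40 ± 0.0843 after propiconazole (adjusted p = 0.0450), at percentile 98.3 of all genes, while 0.32 after myclobutanil (adjusted p = 0.0787) and 0.37 after triadimefon (adjusted p = 0.0808) did not pass. Leaving out 1 array kept its difference after propiconazole between 0.34 and 0.43, with an adjusted p from 0.0217 to 0.188 that stayed under 0.05 only without myclobutanil replicate 1 or 3. The other 2 chaperones, Psmd9 and Psmd10, overlapped with control in all groups, with differences from -0.08 to 0.07. Psmc3ip was near the lower end of the scale, from -0.03 to 0.34 over the 12 arrays, and was the 1 member whose triadimefon arrays were all below control, where 17.2% of all genes were.

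**Figure D3:**
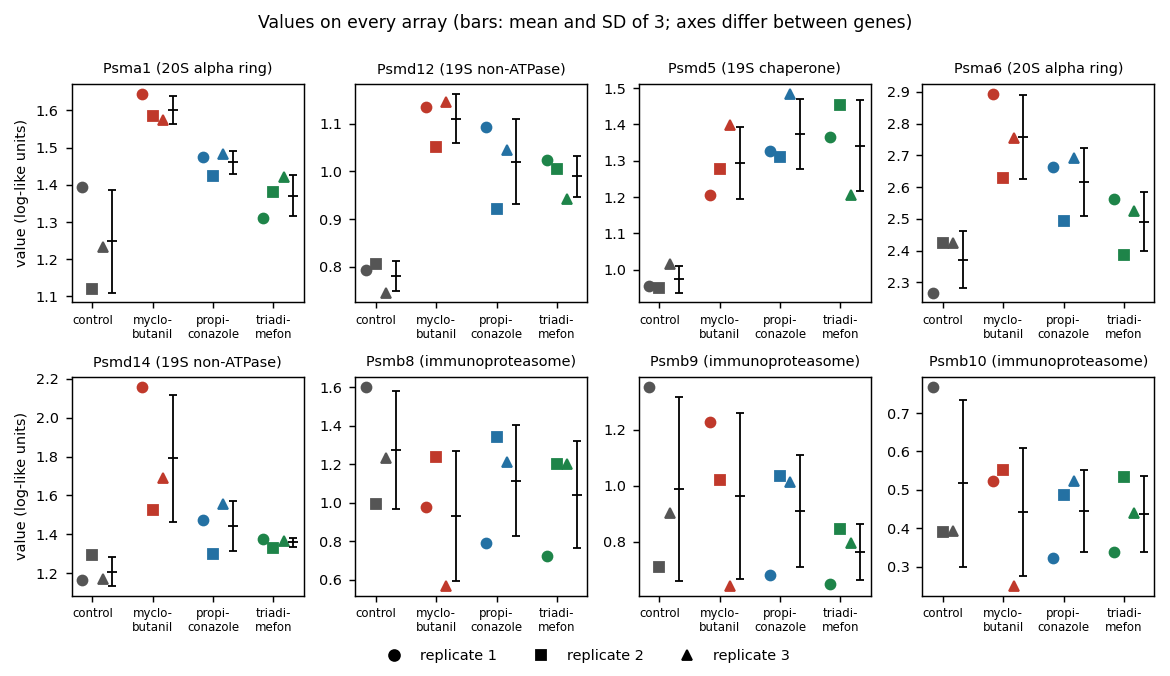
Values of 8 members on every array (log-like units, 1 symbol an array, bars at the mean with the SD of 3), with a separate axis for each gene. Psmd12, Psmd5 and Psmd14 have all treated arrays above control, Psma1 and Psma6 those of myclobutanil and propiconazole, and the 3 immunoproteasome genes overlap in every group.

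Myclobutanil and propiconazole were given at the same dose and differ in structure, with a nitrile and a butyl chain in the former and a dioxolane ring in the latter, so this 1 pair was compared directly. No member and no gene of the 11842 was called (0%) by limma. At an unadjusted p under 0.05, 3 members were higher with myclobutanil, Psma4, Psmc6 and Psmd14, and none was lower, against 5.56% and 5.53% of all genes. The difference for Psma4 was 0.23 ± 0.0738 (95% interval 0.06 to 0.39, adjusted p = 0.406), with no overlap between the groups. Psmc6 read 1.35, 1.13 and 1.12 with myclobutanil and 1.03, 0.90 and 1.07 with propiconazole, a difference of 0.20 (interval 0.03 to 0.37, adjusted p = 0.457). Psmd14 differed by 0.35 (interval 0.05 to 0.65, adjusted p = 0.471) and Psma7 by 0.20 (-0.01 to 0.40, adjusted p = 0.502). The lid subunit Psmd11 read 2.04, 2.01 and 2.08 with myclobutanil, 1.92, 1.79 and 1.98 with propiconazole and 1.90, 1.94 and 2.03 in control, a difference of 0.15 between the compounds (-0.01 to 0.31, adjusted p = 0.512). Other probe sets of these genes gave 0.10 and -0.08 for Psmd14 (1386073_at and 1394082_at) and 0.19 and -0.02 for Psmc6 (1379850_at and 1382385_at). For Psmd11 they gave 0.09 and -0.03 (1376069_at and 1380252_at). Of 11 other tested probe sets of members, 6 had the sign of the probe set used in this comparison. Against control 9 had it after myclobutanil, 6 after propiconazole and 10 after triadimefon. All 7 alpha ring genes had values higher with myclobutanil, by 0.02 to 0.23, and in 4 of the 7 the groups did not overlap, against 7.03% of all genes in this direction and 7.36% in the other. The ATPases leaned the other way, with a median of -0.16 and 4 of 6 below 0. For Psmb8 the difference was -0.19 with an interval from -0.66 to 0.28, so these arrays leave a wide range for the immunoproteasome. The core median of 0.11 between these groups was 0.01 without myclobutanil replicate 1. Triadimefon was given at a lower dose, and its values stand beside the others without a test.

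A measure of RNA quality was set beside these classes. The GAPDH probe sets at the 3′ and 5′ ends of the transcript differ more where RNA or its labelled copy is shorter. Their 3′ minus 5′ difference was 0.368, 0.800 and 0.808 in the control rats, 0.677, 0.478 and 0.716 after myclobutanil, 0.554, 0.352 and 0.398 after propiconazole and 0.827, 0.513 and 0.423 after triadimefon. The group means were 0.659 ± 0.252, 0.624 ± 0.128, 0.434 ± 0.106 and 0.587 ± 0.212 (SD, n = 3). For the beta-actin probe sets the same difference had means of 0.682 ± 0.202, 0.807 ± 0.145, 0.636 ± 0.0925 and 0.838 ± 0.200. By beta-actin, myclobutanil and triadimefon thus lay above control, and by GAPDH below it. In each of the 4 groups, all 3 immunoproteasome genes read higher on the array with the smallest GAPDH difference than on the array with the largest. For the ATPases this held for 5, 6, 5 and 5 of 6 genes, and for the beta ring for 4, 6, 5 and 5 of 6. For the alpha ring it held for 3, 5, 0 and 3 of 7, and for all genes tested it held for 47.0%, 52.7%, 47.8% and 45.8%. These counts leave out the array between the extremes, which after myclobutanil was replicate 1. Its beta ring mean was 0.21, above the 0.16 of replicate 2, which had the smallest GAPDH difference. Its ATPase and immunoproteasome means, 0.028 and -0.017, lay between those of the other myclobutanil arrays.

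With the GAPDH difference added to the model, a choice made after seeing the data, 4 members were called after myclobutanil (Psma6, Psmd14, Psma1 and Psmd12) and none after propiconazole, triadimefon or between myclobutanil and propiconazole. The probe sets called in all moved as well, from 395 to 676 of 21729 after myclobutanil and from 311 to 194 after propiconazole. Psmd5 after propiconazole then had a difference of 0.43 and an adjusted p of 0.0700. The median of the 17 cap genes after propiconazole went from 0.15 to 0.0052, while the core median after myclobutanil was 0.19. Psmb8 after myclobutanil was then at -0.40 (adjusted p = 0.0838). The beta-actin difference was not added to any model. With 12 arrays, whether RNA quality had a part in the beta ring, cap and immunoproteasome values was not tested further.

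**Figure D4:**
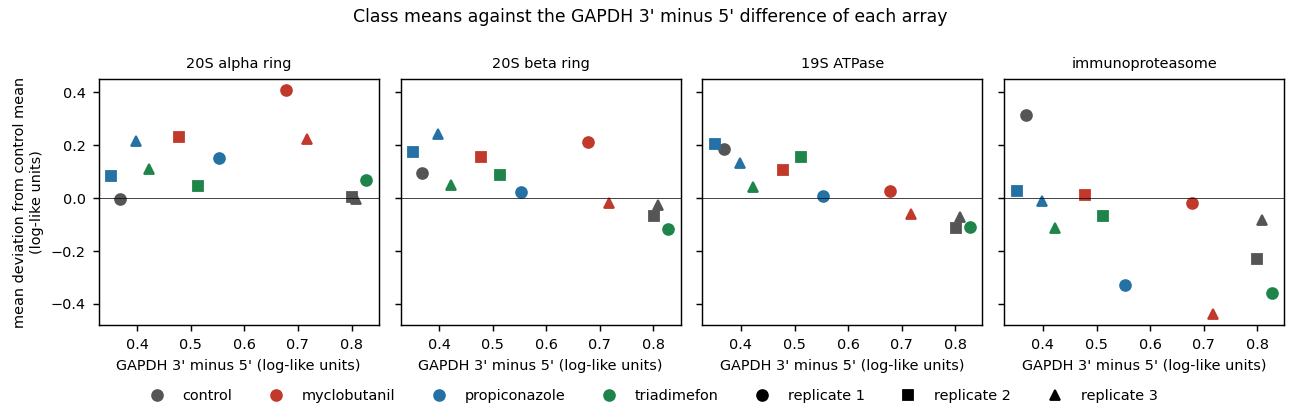
Class mean on each array (deviation from the control mean, log-like units) against that array's GAPDH 3′ minus 5′ difference (log-like units), coloured by group. In each group the beta ring, ATPase and immunoproteasome means are higher on the array with the smallest difference than with the largest. The alpha ring means of treated arrays lie above the controls at both ends of the axis.

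Of the genes that work with the proteasome, 17 of 19 assembly factors and regulators were measured, and none was called with any compound. At an unadjusted p under 0.05, 5 were higher after myclobutanil and none after propiconazole, with 1 lower after triadimefon. Among all genes 10.4%, 8.54% and 7.35% were so. Pomp, the maturation factor of the core, read 2.41, 2.45 and 2.47 in control, 2.90, 2.62 and 2.71 after myclobutanil, 2.51, 2.42 and 2.57 after propiconazole and 2.53, 2.38 and 2.41 after triadimefon. Its myclobutanil arrays were all above the others, with a difference of 0.30 ± 0.0825 from control (adjusted p = 0.0842). Txnl1, a thioredoxin-like protein that binds the cap, differed by 0.41 ± 0.119 (adjusted p = 0.0979). After propiconazole the smallest p-values were those of Uchl5, a deubiquitinase of the cap, at 0.12 (adjusted p = 0.419) and Psmg1, a core assembly chaperone, at -0.12 (adjusted p = 0.476), and Psmg1 was at -0.21 after triadimefon (adjusted p = 0.230). The activator subunits Psme1 and Psme2 gave -0.21 and 0.06 after myclobutanil, 0.13 and -0.07 after propiconazole, and -0.05 and -0.09 after triadimefon. Between myclobutanil and propiconazole the smallest p-values of this list were those of Sem1, a small lid subunit, at 0.30 (adjusted p = 0.394) and Pomp at 0.24 (adjusted p = 0.419).

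None of the 12 genes of the NRF1 pathway and the p97 unfoldase was called. Nfe2l1, which encodes NRF1, differed by 0.05, 0.08 and 0.07 after myclobutanil, propiconazole and triadimefon. Ufd1, a cofactor of p97, gave 0.22 (adjusted p = 0.0936), 0.23 (adjusted p = 0.110) and 0.18 (adjusted p = 0.222). Ddi2, the protease that activates NRF1, was at -0.40 after myclobutanil (adjusted p = 0.120). Zfand2a, a stress-induced protein that binds the cap, gave 0.96 ± 0.539 after myclobutanil (adjusted p = 0.327), 1.61 ± 0.539 after propiconazole (adjusted p = 0.191) and 1.40 ± 0.539 after triadimefon (adjusted p = 0.288), with every treated array above control. Of 11 ubiquitin and shuttle genes 6 were measured by a probe set of their own and none was called, with Ubqln2, a shuttle for ubiquitinated proteins, at 0.22 after myclobutanil (adjusted p = 0.153) and Sqstm1, an autophagy receptor, at 0.61 after propiconazole (adjusted p = 0.227). None of the 7 antigen processing genes measured (of 8 listed) was called. Irf1, the interferon regulatory factor that acts on immunoproteasome genes, was at -0.26 after myclobutanil (adjusted p = 0.218) and -0.36 after triadimefon (adjusted p = 0.193).

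The NRF2 targets, antioxidant genes listed for comparison, had the clearest differences of these lists. All 7 measured were above 0 with each compound, with medians of 0.56, 0.53 and 0.26. After myclobutanil 2 rose, Nqo1 by 0.70 ± 0.10 (adjusted p = 0.0115) and Gsr, glutathione reductase, by 0.33 ± 0.0677 (adjusted p = 0.0405). With propiconazole the haem oxygenase gene Hmox1 rose by 1.76 ± 0.290 (adjusted p = 0.0199), and none of the 7 passed after triadimefon.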

How the data were processed

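Liver RNA of 12 rats was measured, 1 liver an array and 3 arrays a group, per the labels' protocols. For each probe set the authors deposited a score on a log-like scale, and how they made it, with which software and log base, is not given in the sources used here. The plan assumed log-scale values, and the scores were used without conversion. Array medians differed by 0.138 (median SD within groups 0.0736), so the arrays were quantile normalised. Of 31042 probe sets without controls, the 30% with the lowest mean (9313) were left out, leaving 21729. Gene names came from the platform annotation, which may be out of date: 20826 probe sets had a gene each, 436 had several genes and 9780 had none. RefSeq (GRCr8) supplied current symbols for 20758 of them by Entrez ID. Values of a gene come from its probe set with the highest mean.

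limma 3.58.1 (R 4.3.3) fitted 4 group means to the 12 arrays together (8 residual degrees of freedom) and an intensity trend, with tests in both directions and Benjamini-Hochberg adjustment over 21729 probe sets in each of 4 comparisons. Its p-values measure the spread between rats, and the number of arrays limits the precision. Figures used matplotlib 3.10.9, Python 3.11.15 and pandas 2.3.3.

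The members and all lists were chosen with earlier results of these data known. Values on every array are given for the immunoproteasome genes and their measured partners and for called members. They are also given for the 5 members with the smallest p in each comparison, with some exceptions. The triadimefon arrays of Psma4, Psma7, Psmd6 and Psmd11 and the control and triadimefon arrays of Psmc6 are left out. Pathway lists give called genes, else up to 2 with the smallest p or none, with Pomp, Psme1, Psme2 and Nfe2l1 given besides. Values of other alpha ring genes, of the cap subunits Psmd4 and Psmd8 and of shared or additional probe sets were added after they were seen. Alternatives were median centring, the deposited values, other filters, no trend, array weights, the 6 arrays of a pair, the mean of a gene's probe sets, a replicate block and leaving out each array. The GAPDH covariate was added after seeing the data.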

Additional observations from a re-analysis of the deposited data

How the results depend on the processing

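The number of members called was small and moved with the processing. After myclobutanil (2 called) it was 0 with median centring, 0 with the 6 arrays of the pair, 1 with the deposited values, 1 with no filter, 4 with a 50% filter, 4 with the mean of a gene's probe sets, 4 with the GAPDH covariate, 6 with no intensity trend and 8 with array weights. With 1 array left out it ran from 0 (without control replicate 2 or 3, myclobutanil replicate 3, or triadimefon replicate 2 or 3) to 3 (without myclobutanil replicate 2). The probe sets called in all moved too, from 395 to 8 with the 6 arrays of the pair, 296 with median centring, 322 with the deposited values, 304 with no filter, 451 with the 50% filter, 452 with the mean of probe sets, 516 with no trend, 676 with the covariate and 1668 with array weights, and ran from 30 to 924 with 1 array left out. After propiconazole (1 called) it was 0 with median centring, the deposited values, no filter or the covariate, 2 with no trend or array weights, and 0 to 1 with 1 array left out, while the probe sets called in all went from 311 to 194 with the covariate and 1313 with array weights. After triadimefon (0 called) it was 1 with no trend or array weights, and 0 to 1 with 1 array left out. The cause of these moves was not tested. The estimation of the array weights stopped short of its convergence tolerance, so their values are approximate.

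Replicate numbers showed no consistent pairing of the arrays: over 18 same-number pairs the correlation of deviations ran from -0.494 to 0.495, with 3 over 0.1. Deviations within groups of 3 arrays cannot exclude a pairing. With the replicate block 0 members were called after myclobutanil and 0 after propiconazole, and the probe sets called in all went from 395 to 180 and from 311 to 121.

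The core and cap medians after myclobutanil and the core median after propiconazole kept their sign in all 22 alternatives. The cap median after propiconazole was 0.0052 with the covariate. After triadimefon the cap median ran from -0.020 to 0.13 with 1 array left out (0.13 without control replicate 1 or triadimefon replicate 1). Between myclobutanil and propiconazole the core median was 0.025 with median centring, 0.036 with array weights and 0.011 to 0.15 with 1 array left out, and the cap median was 0.064 with the covariate.

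Uncalled beta and immunoproteasome genes changed sign in places. With array weights, Psmb9, Psmb10 and Psmb7 after myclobutanil were 0.064, 0.035 and 0.17, Psmb7 after triadimefon 0.061, and Psmb8 and Psmb10 between myclobutanil and propiconazole 0.092 and 0.093. With the covariate, Psmb7 after propiconazole was -0.037, Psmb5 after triadimefon -0.0047, and Psmb8 and Psmb10 between the pair 0.088 and 0.13. With median centring, Psmb5 and Psmb7 after triadimefon were -0.037 and 0.0069 and Psmb9 between the pair -0.014, and with the deposited values Psmb5 after triadimefon was -0.048. With 1 array left out, Psmb9, Psmb10 and Psmb7 after myclobutanil ran from -0.16 to 0.16, -0.14 to 0.051 and -0.15 to 0.094. After propiconazole Psmb8, Psmb9 and Psmb10 ran from -0.30 to 0.0027, -0.22 to 0.10 and -0.14 to 0.053. After triadimefon Psmb10, Psmb7 and Psmb5 ran from -0.14 to 0.046, -0.10 to 0.12 and -0.036 to 0.035. Between the pair Psmb9, Psmb5 and Psmb10 ran from -0.079 to 0.22, -0.0040 to 0.15 and -0.063 to 0.093.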
